A study of Rattus norvegicus with 6 samples.

Results

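The genes described here store iron and move it across membranes, and 10 were chosen by name: Fth1, Ftl1, Tfrc, Tf, Slc40a1, Slc11a2, Cp, Steap3, Ireb2 and Aco1. All 10 were found by symbol among the 22085 genes of the table, and all 10 had enough counts to be tested. They were measured by RNA sequencing in rat cells grown from amniotic fluid that was taken on embryonic day 18.5, the cells being harvested at the 4th passage. There were 3 libraries from pregnancies modelling preeclampsia, in which the mother develops hypertension, and 3 from control pregnancies. How preeclampsia was induced, the strain, the age of the dams and whether a library holds 1 fetus, 1 litter or a pool are not given in the sources used here. Both groups were cultured in DMEM/F12 with fetal bovine serum, which itself carries transferrin, the iron source of most cultured cells. The cells had been kept in that medium up to harvest, so the RNA reflects cultured cells and not amniotic fluid cells as collected.

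Cells take up iron bound to transferrin (Tf) through the transferrin receptor (Tfrc), reduce it in endosomes with the reductase Steap3 and pass it to the cytosol through the transporter Slc11a2, also called DMT1. Iron that is not used is stored in ferritin, a shell of heavy (Fth1) and light (Ftl1) chains, or leaves through ferroportin (Slc40a1) with the help of the copper oxidase ceruloplasmin (Cp). A pair of RNA-binding proteins, IRP1 (Aco1) and IRP2 (Ireb2), sense cytosolic iron: when iron is low they block translation of ferritin and ferroportin messenger RNAs and stabilise that of Tfrc. Ferritin is therefore controlled largely in translation, and its RNA level need not follow its protein. In pregnancy, iron passes from maternal transferrin to the fetus through the same receptor and exporter in the placenta.

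Total counts ran from 48402185 to 59193961 per library. The labels name mesenchymal stem cells, and mesenchymal markers were led by Col1a1 and Cxcl12. In FPKM (a read count scaled to gene length and to library depth) they summed to 8425, 11019 and 9732 in preeclampsia libraries 1 to 3. In control libraries 1 to 3 they summed to 7484, 8021 and 6928 FPKM. Every preeclampsia library was above every control library in this sum, and the difference was not tested. The libraries were not alike within groups. Along principal component 1 (33.3% of variance), preeclampsia library 1 (-40.92) lay among the control libraries (-44.36 to -17.98), far from preeclampsia libraries 2 and 3 (69.24 and 68.48). Along principal component 2 (22.7%), control library 3 (-78.65) lay far from control libraries 1 and 2 (47.63 and 32.7). The preeclampsia libraries lay between them, from -17.7 to 10.25. Macrophage markers, of which 19 of 20 were in the table, summed to 31.5, 460.4 and 225.8 FPKM in preeclampsia libraries 1 to 3 and to 156.8, 133.0 and 28.2 FPKM in control libraries 1 to 3. Genes of the G2 and M phases, a sign of proliferation, summed to 663.1, 132.8 and 142.1 FPKM in the preeclampsia libraries and to 250.02, 315.8 and 139.3 FPKM in the control libraries. In such bulk samples, fewer cells of a type and less RNA per cell cannot be told apart.

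To show where transcription of the uptake genes starts, the bases ahead of the start of Tfrc and of both listed starts of Slc11a2 are printed from RefSeq (GRCr8, minus strand, 250 bases each, 5' to 3'). Slc11a2 is known to use alternative first exons, and the measured values are per gene and do not separate them. Capitals mark ACGTG and GCGTG on either strand (read as CACGT and CACGC on the other), the core letters that the hypoxia-inducible factors bind, since Tfrc is known as a target of these factors. The windows are chr11:81690319-81690568 for Tfrc, chr7:133417789-133418038 for the first Slc11a2 start and chr7:133418940-133419189 for the second. First and second follow the coordinates, so on this minus strand the second start lies upstream of the first.
Tfrc: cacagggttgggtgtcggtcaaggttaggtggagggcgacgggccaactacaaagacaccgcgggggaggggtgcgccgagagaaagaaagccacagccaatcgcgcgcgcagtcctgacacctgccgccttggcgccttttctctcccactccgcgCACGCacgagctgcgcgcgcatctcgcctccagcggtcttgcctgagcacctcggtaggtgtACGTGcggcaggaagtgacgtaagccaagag
Slc11a2 first start: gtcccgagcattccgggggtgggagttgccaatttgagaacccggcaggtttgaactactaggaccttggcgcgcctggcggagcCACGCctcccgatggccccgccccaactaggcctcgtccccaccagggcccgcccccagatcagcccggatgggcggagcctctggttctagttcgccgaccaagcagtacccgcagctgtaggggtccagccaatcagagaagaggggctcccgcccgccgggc
Slc11a2 second start: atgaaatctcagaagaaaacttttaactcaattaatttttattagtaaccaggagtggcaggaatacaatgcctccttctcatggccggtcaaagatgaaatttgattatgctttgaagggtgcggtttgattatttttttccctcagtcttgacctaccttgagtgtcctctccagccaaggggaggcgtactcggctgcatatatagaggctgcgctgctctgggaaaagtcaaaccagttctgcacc
The Tfrc window held ACGTG 31 bases before the start and CACGC 93 bases before it. One start of Slc11a2 had CACGC 165 bases before it, and the window of the other start held neither. Of 33469 rat promoter windows of this length, 16.6% held ACGTG, 25.9% held GCGTG and 36.7% held either. Of the 8 iron genes with a window in the table, 3 held either motif: Tfrc, Slc11a2 and Aco1. A match of 5 letters is a description of the sequence and shows no binding.

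None of the 10 iron genes passed an adjusted p of 0.05 between preeclampsia and control cells by edgeR's quasi-likelihood test, nor did any gene of the table (0 of 15776, or 0%). At an unadjusted p under 0.05 there were 0 of the 10 iron genes, against 9.19% of all genes tested, and DESeq2 called 0 of the 10, against 1.71% of all genes. The log2 fold changes, preeclampsia over control, ran from -0.58 for Ftl1 to 1.30 for Tf. Of the 10, 6 were above 0 and 4 below, with a median of 0.12, against 51.7% above 0 and a median of 0.014 over all genes tested. The FPKM of 2 of the 10, Ftl1 and Slc11a2, did not overlap between the groups, in each case lower in preeclampsia, which was so in 8.32% of all genes tested. In the other direction there were 0 of the 10, against 6.15% of all genes.

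**Figure D1:**
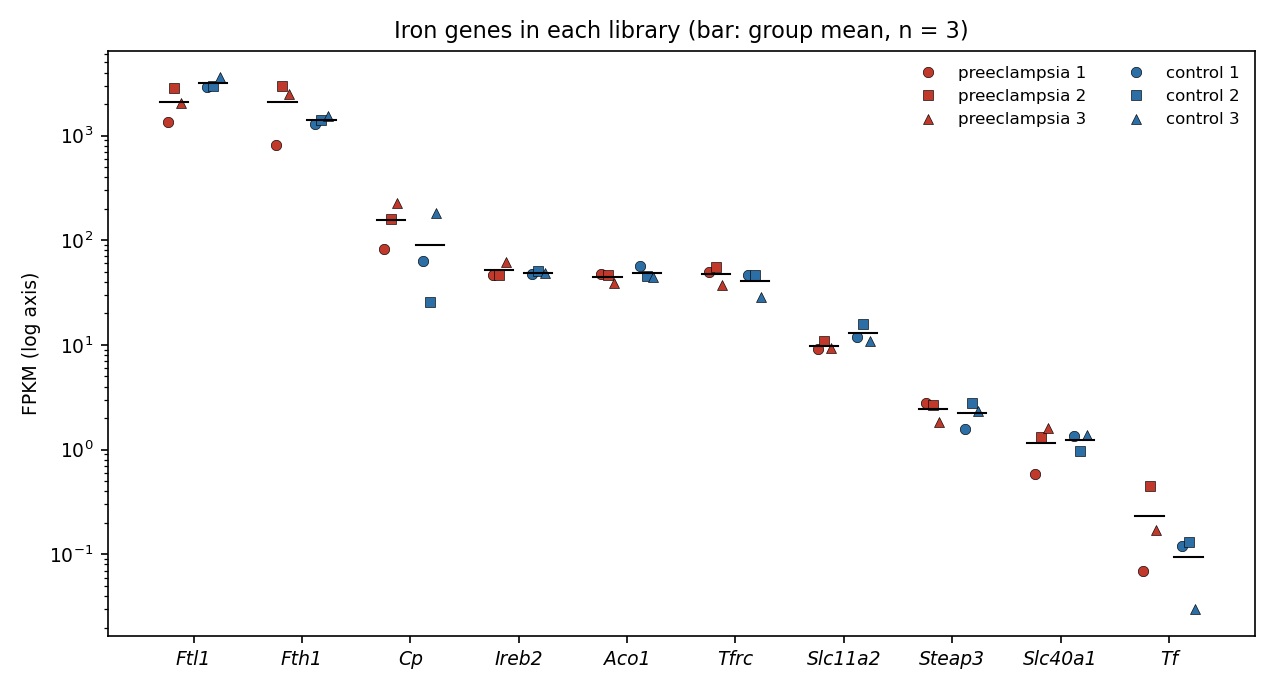
FPKM of the 10 iron genes on a log axis, ordered by mean level, with each library as a point (preeclampsia red, on the left of each pair, control blue) and the group mean (n = 3) as a bar. The ferritin chains Ftl1 and Fth1 lie highest and Tf lowest, and preeclampsia library 1 is the lowest point of its group for Fth1, Ftl1, Cp, Slc11a2, Slc40a1 and Tf.

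The ferritin chains were the most abundant of the iron genes, and their group means lay apart in opposite directions, neither passing the test. Fth1, the heavy chain with the ferroxidase centre that oxidises incoming iron, stood at 817, 2985 and 2499 FPKM in preeclampsia libraries 1 to 3, against 1300.4, 1396 and 1542 FPKM in control libraries 1 to 3. Preeclampsia libraries 2 and 3 lay above every control library, and preeclampsia library 1 below every control library. The mean was 2100.4 ± 1138 FPKM in preeclampsia and 1413 ± 121 FPKM in control (SD, n = 3 each), a log2 fold change of 0.61 (SE 0.46, 95% interval -0.51 to 1.74, adjusted p = 0.768). Without preeclampsia library 1 the log2 fold change was 1.01, and without preeclampsia library 2 it was 0.25. The order of the preeclampsia libraries for Fth1 was that of their macrophage marker sums (31.5, 460.4 and 225.8 FPKM), while control library 3, with the lowest sum of all, 28.2 FPKM, had the highest Fth1 of its group. The part of these cells in the level of Fth1 was not tested.

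Ftl1, the light chain that promotes formation of the mineral core, stood at 1363, 2821.5 and 2041 FPKM in the preeclampsia libraries, against 2927, 2983 and 3599 FPKM in the control libraries. All 3 preeclampsia libraries were below all 3 control libraries, though preeclampsia library 2 came close to control library 1. The mean was 2075 ± 730.1 FPKM in preeclampsia and 3169.5 ± 373 FPKM in control (SD, n = 3 each). The log2 fold change was -0.58 (SE 0.29, 95% interval -1.29 to 0.13, adjusted p = 0.629), and it was -0.33 without preeclampsia library 1 and -0.89 without preeclampsia library 2. In preeclampsia library 1, where G2 and M phase genes were highest at 663.1 FPKM, both ferritin chains were at their lowest of all libraries. That library also had the lowest macrophage marker sum of its group, 31.5 FPKM. Control library 2, with the next highest G2 and M phase sum (315.8 FPKM), had Ftl1 at 2983 and Fth1 at 1396 FPKM. The part of proliferation in the level of the ferritin chains was not tested. Both chains have processed pseudogenes, and reads could be shared with copies. The annotated copy Ftl1l1 had between 74 and 194 counts per library, against 66060 to 172972 counts for Ftl1.

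Because the chains assemble in one shell, their balance was also taken within each library. The FPKM ratio of Ftl1 to Fth1 was 1.67, 0.945 and 0.817 in the preeclampsia libraries, against 2.25, 2.14 and 2.33 in the control libraries. Every preeclampsia library, library 1 included, had a lower light-to-heavy ratio than every control library, and in preeclampsia libraries 2 and 3 the heavy chain exceeded the light chain. The mean ratio was 1.14 ± 0.459 in preeclampsia and 2.24 ± 0.0996 in control (SD, n = 3 each), a separation that is given as a description and was not tested. Ftl1 alone was already lower in preeclampsia without overlap, as were 8.32% of all genes tested. How often ratios of 2 genes separate the groups was not counted. In the table's coordinates, whose sequence names are those of mRatBN7.2, Fth1 spans 206627142 to 206629430 and Ftl1 95936390 to 95938234, both on chromosome 1.

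**Figure D2:**
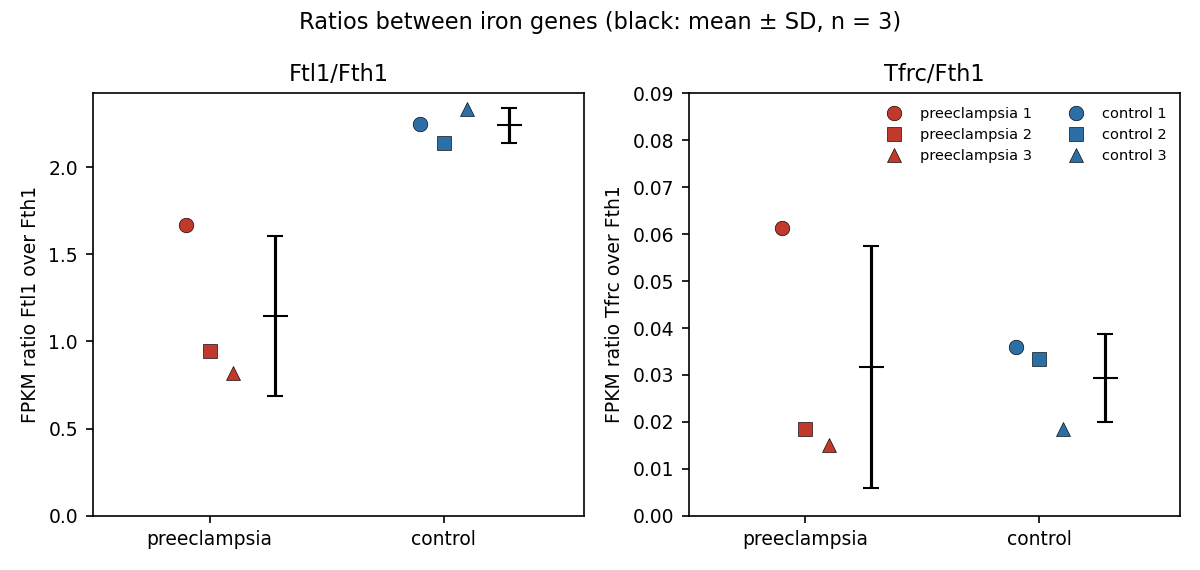
FPKM ratio of Ftl1 to Fth1 (left) and of Tfrc to Fth1 (right) in each library, preeclampsia on the left and control on the right, with mean ± SD (n = 3) in black. The Ftl1 to Fth1 ratio is at most 1.67 in preeclampsia and at least 2.14 in control, while the Tfrc to Fth1 ratios of the groups overlap.

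On the uptake side, the transferrin receptor gene Tfrc was at 50.2, 55.2 and 37.6 FPKM in the preeclampsia libraries, against 46.7, 46.65 and 28.6 FPKM in the control libraries. The groups overlapped, with library 3 the lowest of each. The means were 47.7 ± 9.06 FPKM in preeclampsia and 40.65 ± 10.4 FPKM in control (SD, n = 3 each), with a log2 fold change of 0.24 (SE 0.26, 95% interval -0.37 to 0.86, adjusted p = 0.837). Without control library 3 it was 0.04. Tfrc is known to be high in dividing cells, and the G2 and M phase genes differed 4.99-fold between the libraries, while Tfrc differed 1.93-fold. The sum of those genes was highest in preeclampsia library 1 (663.1 FPKM, Tfrc 50.2) and lowest in preeclampsia library 2 (132.8 FPKM, Tfrc 55.2). In control library 3, where Tfrc was lowest, the sum was 139.3 FPKM. The part of proliferation in the level of Tfrc was not tested. The ratio of Tfrc to Fth1, the IRP-stabilised receptor over the stored-iron chain, was 0.0614, 0.0185 and 0.0151 in preeclampsia and 0.0359, 0.0334 and 0.0186 in control. Preeclampsia library 1 had the highest of these ratios and preeclampsia library 3 the lowest, so that both ends of the range lay in the same group.

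Slc11a2, which carries iron out of the endosome, had the smallest unadjusted p of the 10 genes, 0.0801. It stood at 9.19, 10.9 and 9.39 FPKM in the preeclampsia libraries, against 11.9, 15.7 and 11.0 FPKM in the control libraries. The groups did not overlap, but the highest preeclampsia library and the lowest control library were nearly level. Means were 9.83 ± 0.946 FPKM in preeclampsia and 12.9 ± 2.52 FPKM in control (SD, n = 3 each), a log2 fold change of -0.36 (SE 0.18, 95% interval -0.79 to 0.06, adjusted p = 0.614). Without control library 2, the highest of all, it was -0.20. Over the 6 libraries, the genes whose log2 CPM (counts scaled to library depth) followed Slc11a2 most closely were Anks6 (Pearson r = 0.988), Vac14 (0.987) and Noct (0.987), out of 13450 genes with a symbol, of which 20 had r over 0.95. With 6 points that share libraries and groups, these values are a description only. The gene lies on chromosome 7, from 131503076 to 131540246 in the table's coordinates.

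Steap3, the ferrireductase of the transferrin cycle, was at 2.78, 2.68 and 1.83 FPKM in the preeclampsia libraries and at 1.59, 2.81 and 2.33 FPKM in the control libraries. The ranges overlapped almost wholly, with a log2 fold change of 0.14 (95% interval -0.48 to 0.76, adjusted p = 0.912), or -0.03 without control library 1. Tf, the plasma iron carrier made mainly by liver, had the lowest FPKM values of the 10 genes. They were 0.07, 0.45 and 0.17 FPKM in preeclampsia and 0.12, 0.13 and 0.03 FPKM in control, and are not read as levels, for the gene length discussed below. These values rest on 34, 261 and 82 counts in the preeclampsia libraries and on 58, 67 and 17 counts in the control libraries. Its log2 fold change of 1.30 (95% interval -0.73 to 3.34, adjusted p = 0.714) was the largest of the 10 genes, and it was 0.33 without preeclampsia library 2. Markers of hepatocytes and visceral endoderm, of which 8 of 13 were in the table, summed to between 0.18 and 0.49 FPKM in preeclampsia and between 0.09 and 0.56 FPKM in control. Among them Alb was listed at 0 in all libraries but preeclampsia library 2.

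**Figure D3:**
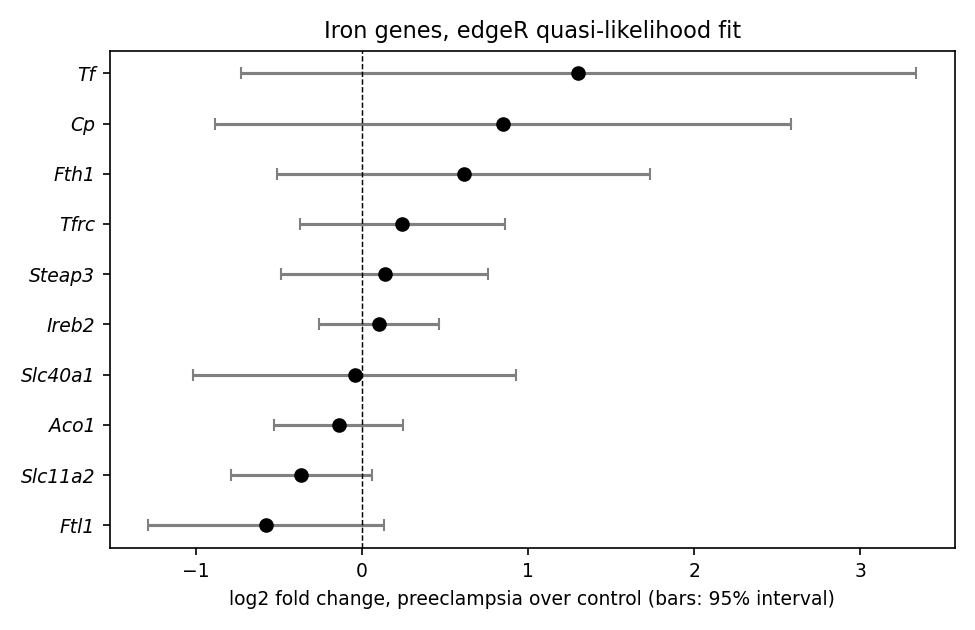
Log2 fold change of each iron gene, preeclampsia over control, from edgeR's quasi-likelihood fit, with its 95% interval as a bar and no change as a dashed line. Every interval crosses 0, from the narrow ones of Ireb2 and Aco1 to that of Tf, which runs from -0.73 to 3.34.

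On the export side, ferroportin RNA (Slc40a1), which encodes the sole known cellular iron exporter of mammals, was at 0.58, 1.31 and 1.62 FPKM in preeclampsia libraries and at 1.34, 0.97 and 1.37 FPKM in control libraries. Preeclampsia library 1 was the lowest of all and preeclampsia library 3 the highest, so the groups overlapped. The log2 fold change of -0.04 (95% interval -1.01 to 0.93, adjusted p = 0.981) was 0.29 without preeclampsia library 1. Ferroportin is abundant in macrophages, and the markers of these cells, as a sum of FPKM, were low in preeclampsia library 1 (31.5) and in control library 3 (28.2), where Slc40a1 was at 0.58 and 1.37 FPKM. The part of these cells in its level was not tested.

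Cp, the ferroxidase that oxidises exported iron for loading onto transferrin, varied more between libraries than between groups. It stood at 81.9, 161 and 228 FPKM in preeclampsia libraries 1 to 3, against 63.5, 25.8 and 181 FPKM in control libraries 1 to 3. Library 3 was the highest in each group, and control library 2 the lowest of all, 8.82-fold below preeclampsia library 3. The means were 157 ± 73.1 FPKM in preeclampsia and 90.0 ± 80.7 FPKM in control (SD, n = 3 each), with a log2 fold change of 0.85 (SE 0.72, 95% interval -0.89 to 2.58, adjusted p = 0.794). It was 1.81 without control library 3 and 0.41 without control library 2. Cp spans 102439433 to 102498075 on chromosome 2 in the table's coordinates.

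The sensor genes were the steadiest of the 10. Ireb2, which encodes the iron-degraded regulator IRP2, was at 47.05, 46.2 and 62.0 FPKM in preeclampsia and at 47.1, 51.3 and 48.2 FPKM in control. Its log2 fold change was 0.10 (SE 0.15, 95% interval -0.26 to 0.46, adjusted p = 0.883), and -0.05 without preeclampsia library 3. Aco1, a cytosolic aconitase that turns into IRP1 when it loses its iron-sulfur cluster, was at 47.3, 46.1 and 39.0 FPKM in preeclampsia and at 57.1, 45.9 and 44.3 FPKM in control. Its log2 fold change was -0.14 (SE 0.16, 95% interval -0.53 to 0.25, adjusted p = 0.854), and 0.02 without control library 1. Across all 6 libraries the coefficient of variation was 11.9% for Ireb2 and 12.7% for Aco1, against 46.5% for Fth1, 63.2% for Cp and 92.4% for Tf. As fold changes, the 95% intervals run from 0.837 to 1.38 for Ireb2 and from 0.693 to 1.19 for Aco1.

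**Figure D4:**
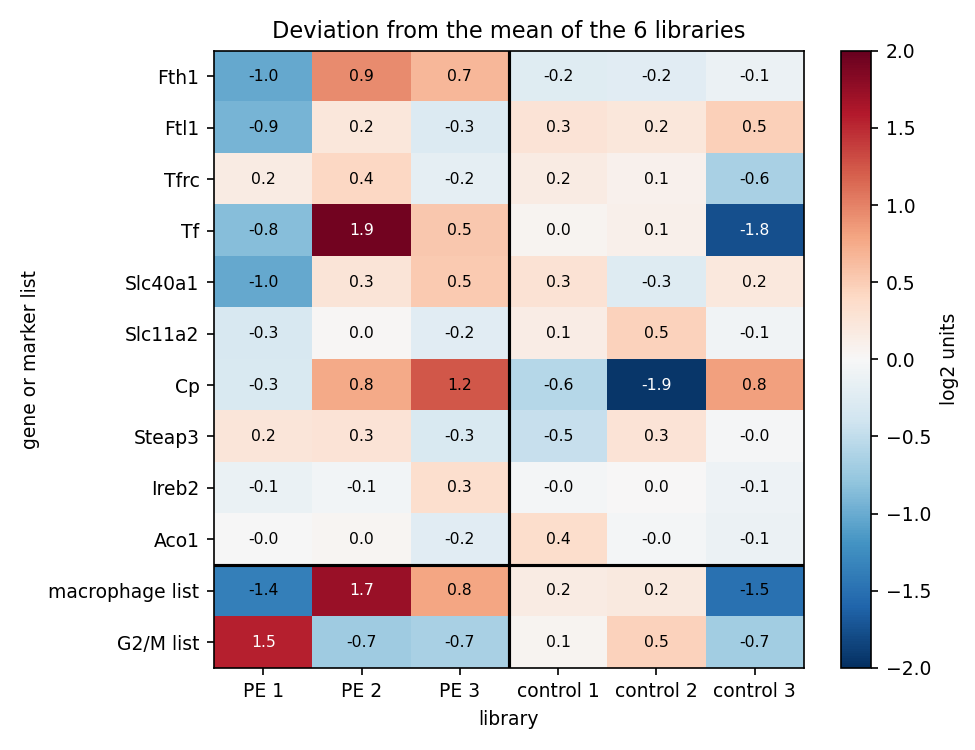
Difference of each library from the mean of the 6 libraries, in log2 units, for the 10 iron genes (log2 CPM) and, below the line, for the mean of the macrophage and of the G2 and M phase lists (log2 of CPM plus 1), preeclampsia (PE) on the left. Fth1, Ftl1 and Slc40a1 are about 1 unit below the mean in preeclampsia library 1. In that library the G2 and M phase list is highest and the macrophage list lowest of its group, and no link was tested.

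Ordered by mean FPKM, the ferritin chains Ftl1 (2622) and Fth1 (1757) stood first, followed by Cp (123). Ireb2 (50.3), Aco1 (46.6) and Tfrc (44.2) came next with overlapping libraries, then Slc11a2 (11.4), Steap3 (2.34), Slc40a1 (1.20) and Tf (0.162). Levels of different genes are comparable here only as far as the lengths used for FPKM hold. Count and FPKM together imply a length of 327 bases for Cp, 1556 for Aco1 and 2399 for Ireb2, shorter than the coding regions of these large proteins, and of 13600 bases for Slc40a1 and 9875 for Tf, far longer than their known messenger RNAs. The places of these genes in the order, Cp at 123 FPKM included, are therefore not read as levels. Comparisons of a gene with itself between libraries do not depend on its length.

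Around these 10, a wider set of 134 genes of iron, heme and iron-sulfur handling was read from the same fit, in 8 lists that share some genes. Of these, 123 were tested and 0 were called by edgeR's adjusted p, as for all genes. At an unadjusted p under 0.05 there were 9 higher and 11 lower in preeclampsia, or 7.3% and 8.9% of the 123, against 4.13% and 5.06% of all genes tested. DESeq2 called 6 of the 123 (4.9%), against 1.71% of all genes: Cybrd1, Picalm, Smad7, Hp, Nqo1 and Steap4, the last named after its values were seen. Steap4 was at 0.16, 0.97 and 3.88 FPKM in preeclampsia and at 0.17, 0.02 and 0.13 FPKM in control. Its groups overlapped at these low levels, with preeclampsia library 3 far above the rest (3.95, SE 1.3, adjusted p = 0.473 by edgeR). The median log2 fold change was -0.01 over the 123 and 0.014 over all genes. The groups did not overlap for 7 genes that were higher in preeclampsia, 5.7% of the 123 against 6.15% of all genes, and for 17 that were lower, 13.8% against 8.32% of all genes. The lists were chosen with earlier results of these data known, so these shares are a description and no test of the lists. For DESeq2, all genes are the 17665 with an adjusted p, some of which edgeR's filter left out.

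**Figure D5:**
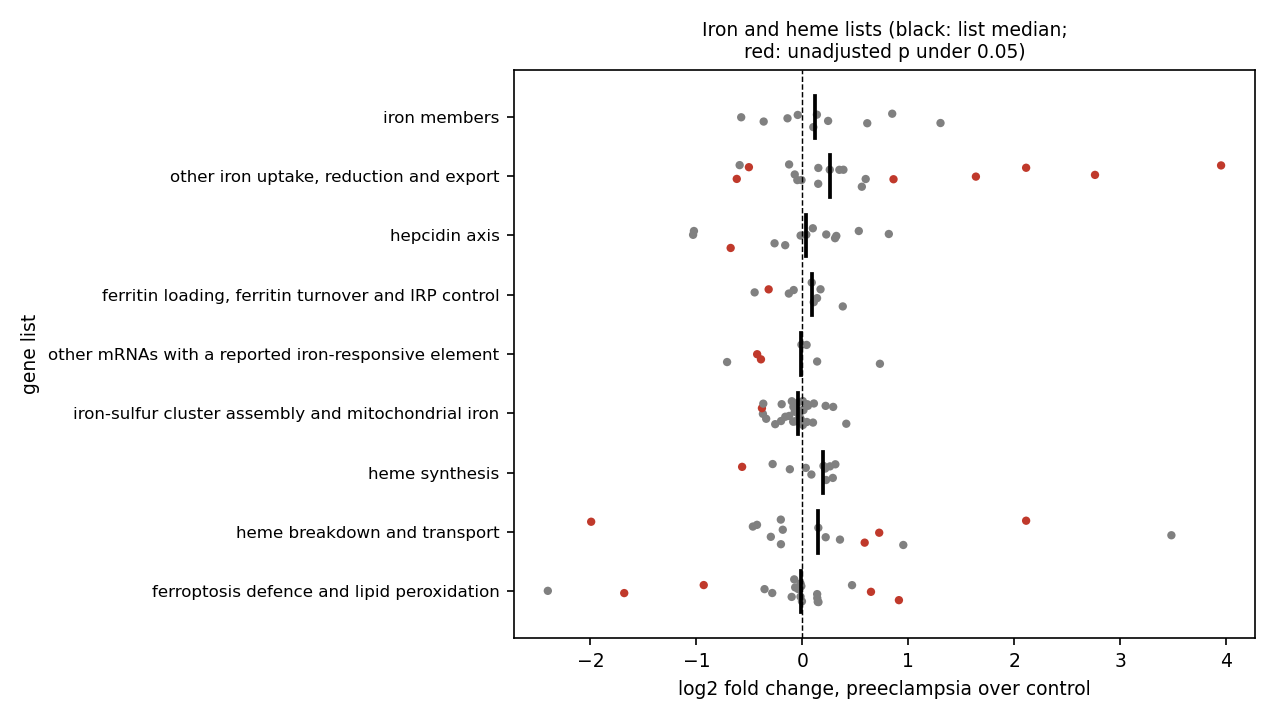
Log2 fold change, preeclampsia over control, of each tested gene of the iron and heme lists (points, jittered up and down for sight only), with the list median as a black line and an unadjusted p under 0.05 in red. The medians lie between -0.04 for iron-sulfur and mitochondrial iron genes and 0.26 for the other uptake, reduction and export genes.

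Among 19 tested genes of uptake, reduction and export, 12 were above 0 and 7 below, with 0 called. The plasma membrane ferric reductase Cybrd1, known as duodenal cytochrome b, stood at 9.39, 9.28 and 9.77 FPKM in preeclampsia, against 13.75, 14.0 and 16.6 FPKM in control. The groups were apart with little spread inside preeclampsia, and the log2 fold change was -0.62 (SE 0.12, adjusted p = 0.374 by edgeR). Picalm, a clathrin adaptor that takes part in endocytosis of the transferrin receptor, was at 298, 266 and 269 FPKM in preeclampsia and at 417, 368.5 and 411 FPKM in control, again without overlap (-0.50, SE 0.12, adjusted p = 0.406). The metalloreductase Steap2, the other abundant gene of this list, was at 442, 511 and 551.5 FPKM in preeclampsia, against 204, 226 and 418 FPKM in control (0.86, SE 0.28, adjusted p = 0.473). Of the 19, the groups did not overlap for 3 higher in preeclampsia and 2 lower, against 6.15% and 8.32% of all genes. At an unadjusted p under 0.05 by edgeR, 5 of the 19 were higher and 2 lower, against 4.13% and 5.06% of all genes.

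Of the 13 tested genes of the hepcidin axis, which sets ferroportin protein in the body, 7 were above 0 and 6 below. Smad7, an inhibitor of BMP and TGF-beta signalling that also restrains hepcidin, was at 6.92, 6.81 and 7.31 FPKM in preeclampsia and at 11.2, 13.2 and 9.68 FPKM in control (-0.68, SE 0.15, adjusted p = 0.382). Its relative Smad6 was at 6.09 ± 0.552 FPKM in preeclampsia and 5.00 ± 0.525 FPKM in control (0.31, SE 0.15, adjusted p = 0.616). The abundant Acvr1 (33.8 ± 5.67 and 38.5 ± 3.32 FPKM in preeclampsia and control) and Smad4 (34.1 ± 0.396 and 32.4 ± 3.15 FPKM) had an adjusted p of 0.843 and 0.836.

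Of 9 tested genes of ferritin loading, ferritin turnover and IRP control, 5 were above 0 and 4 below. Glrx3, a glutaredoxin of cytosolic iron delivery, was at 58.2 ± 6.03 FPKM in preeclampsia and 73.5 ± 8.73 FPKM in control (-0.32, SE 0.12, adjusted p = 0.515), without overlap. Prnp, the prion protein gene, was at 1063 ± 329 FPKM in preeclampsia and 1486 ± 260 FPKM in control, with overlap (-0.45, SE 0.27, adjusted p = 0.681). Among 7 tested messenger RNAs with a reported iron-responsive element, the hairpin bound by the IRPs, 3 were above 0 and 4 below. The kinase gene Cdc42bpa was at 94.1 ± 9.36 FPKM in preeclampsia and 124.5 ± 10.0 FPKM in control (-0.39, SE 0.13, adjusted p = 0.473). Pfn2, a profilin gene, was at 31.45 ± 2.64 FPKM in preeclampsia and 42.8 ± 6.77 FPKM in control (-0.43, SE 0.14, adjusted p = 0.473). App, the amyloid precursor gene, had a log2 fold change of 0.04.

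Iron-sulfur clusters are the cofactors that switch IRP1 to aconitase. Genes of their assembly and of mitochondrial iron numbered 31, all of them tested, with 11 above 0 and 20 below and a median of -0.04. Iscu, the scaffold on which the cluster is assembled, was at 40.4, 40.8 and 36.2 FPKM in preeclampsia, against 47.55, 50.1 and 57.8 FPKM in control. The groups did not overlap, and the log2 fold change was -0.38 (SE 0.12, adjusted p = 0.473). Abcb10, a mitochondrial transporter, was at 2.2 ± 0.229 FPKM in preeclampsia and 2.88 ± 0.303 FPKM in control (-0.37, SE 0.16, adjusted p = 0.566). The chaperone Hspa9 and the assembly factor Isca1, the most abundant of the list, had log2 fold changes of -0.09 and -0.01.

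Of 11 tested genes of heme synthesis, 8 were above 0 and 3 below. Uros, which encodes uroporphyrinogen synthase, was at 0.243 ± 0.0404 FPKM in preeclampsia and 0.367 ± 0.0513 FPKM in control (-0.57, SE 0.22, adjusted p = 0.518). Urod and Tmem14c, the most abundant, had log2 fold changes of 0.22 and 0.20. Alas2, the erythroid form of the first enzyme, was listed at 0 in all 6 libraries, as was the erythroid membrane gene Epb42. Of 16 erythroid markers 9 were in the table, and only these 2 were at 0 in all libraries. The 9 summed to between 2.87 and 5.32 FPKM per library, most of it from Tmcc2 (2.2 to 5.08 FPKM).

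In heme breakdown and transport 8 of 15 tested genes were above 0 and 7 below. Hp, the haptoglobin gene whose product binds free hemoglobin, was at 0.56, 1.28 and 1.37 FPKM in preeclampsia, against 0.14, 0.22 and 0.40 FPKM in control (2.11, SE 0.54, adjusted p = 0.441 by edgeR). Flvcr2, a membrane transporter first described for heme, was at 1.85, 0.62 and 0.64 FPKM in preeclampsia and at 7.35, 2.31 and 2.54 FPKM in control, library 1 being the highest of each group (-1.99, SE 0.66, adjusted p = 0.473). Lrp1, the hemopexin receptor, was at 137 ± 33.6 FPKM in preeclampsia and 93.3 ± 16.9 FPKM in control (0.59, SE 0.24, adjusted p = 0.544). Pgrmc1, a heme-binding membrane protein gene, had a log2 fold change of -0.20 (adjusted p = 0.776). Cd163, the hemoglobin scavenger receptor, belongs to this list and to the macrophage markers, and stood at 1.54, 62.0 and 43.7 FPKM in preeclampsia and at 5.30, 4.23 and 0.20 FPKM in control.

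Ferroptosis is a form of cell death in which iron drives lipid peroxidation, and of 20 tested genes of its control 7 were above 0 and 13 below. Nqo1, a quinone reductase and target of the oxidative stress factor NRF2, was at 63.2, 57.3 and 47.7 FPKM in preeclampsia, against 74.6, 340.0 and 136 FPKM in control. Control library 2 stood far above the rest, and the log2 fold change was -1.68 (SE 0.52, adjusted p = 0.470 by edgeR). Chac1, a glutathione-degrading enzyme, was at 1.51 ± 0.339 FPKM in preeclampsia and 2.89 ± 0.753 FPKM in control (-0.93, SE 0.29, adjusted p = 0.470). Txnrd1, a thioredoxin reductase and likewise an NRF2 target, had a log2 fold change of -0.04 (95% interval -0.41 to 0.33).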

How the data were processed

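Per the labels' protocols, RNA was enriched on oligo(dT) beads, primed with random hexamers and ligated to adapters with molecular identifiers. Tools named in the submitters' processing notes are HISAT2 2.2.1, StringTie 2.1.6, cutadapt 1.9 and FastQC. Neither the genome build nor any use of the identifiers is given in the sources used here. In the table the authors deposited, each gene has 1 whole-number count and 1 FPKM value per library, per the file headers. Multiples of 4 made up 35.1% to 38.0% of the deposited counts of 1 to 15 in each library, where an even spread gives 20%, so counts in that range are less certain than their size implies. Counts of the 10 members were all above it.

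After filterByExpr and TMM scaling, edgeR 4.0.16 (R 4.3.3) fitted its two-sided quasi-likelihood test to the counts with group alone as a term. P-values of the 15776 genes were adjusted by Benjamini-Hochberg, and under 0.05 counted as called. Fold changes are preeclampsia over control. Each p-value measures the spread between these libraries, which may be technical, since the labels name separate pregnancies by number but no animals. Libraries of a group varied with a biological coefficient of variation of 0.418, and log2 fold changes had a median SE of 0.26. No pair of libraries was a duplicate (chi-square per degree of freedom at least 139.8).

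The members and lists were chosen with earlier results of these data known. Named were all 10 members and, per wider list, every gene called, or else the 2 with the smallest p and the 2 with the highest mean FPKM; for the member with the smallest p, the 3 genes with the highest correlation. A few genes that this rule names are not reported here. Lists are described by counts and medians, with no test. Alternatives were DESeq2 1.42.0, RLE factors, no filter, a block for the replicate number, each library omitted in turn, and limma 3.58.1 on log2 FPKM after adding a pseudocount of 1 or 0.1, where mean FPKM reached 1, a scale that understates the change of low genes. Scripts were tested on simulated data whose spread between libraries was smaller than that of these libraries, so how the test performs at this spread is not shown. Promoter sequences are those of RefSeq, GRCr8, and no coordinates were converted between builds.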

Additional observations from a re-analysis of the deposited data

How the results depend on the processing

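The count of iron genes called was 0 with edgeR's quasi-likelihood test and 0 under all 14 alternatives run, including DESeq2, and their adjusted p was never below 0.114 (Fth1). With 3 libraries a group, these counts of 0 leave changes inside the printed intervals undetected. Of 138 log2 fold changes of single iron genes under the alternatives, 131 kept their direction and 7 did not. Reversed were Slc40a1 (-0.348 to 0.356 over the omitted libraries, with 0.293 without preeclampsia library 1, 0.06 without control library 1, 0.021 without control library 3, and 0.356 without control library 3 and preeclampsia library 1), Ireb2 (-0.05 to 0.189, turning without preeclampsia library 3), Steap3 (-0.034 to 0.328) and Aco1 (-0.253 to 0.021), the last 2 turning without control library 1; the cause was not tested. The median over the 10 was 0.12, with 0.058 to 0.231 when a library was left out. Leaving out control library 3 and preeclampsia library 1, both low in macrophage markers, was added after the data were seen, and gave 1.05 for Fth1, -0.25 for Ftl1, 2.13 for Cp and a median of 0.114. Over all genes, edgeR called 0, DESeq2 302, limma on log2(FPKM + 1) with no filter 1, edgeR between 0 and 2 with a library left out, and 3 without the 2 libraries just named. Of the other iron and heme genes DESeq2 called 6 and the edgeR and limma alternatives 0. Tf could not be tested by limma at a mean FPKM of at least 1. Same-numbered libraries did not deviate together (r of 0.0104 to 0.0484, the threshold being 0.1), and 4 of 6 libraries correlated best with their own number. With the replicate number as a block, edgeR called 0 genes, 0 of them iron genes, and the median of the 10 was 0.116.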
